A study of Mus musculus with 7 samples.

Results

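The CC chemokines described here are 9 genes, Ccl2 to Ccl9 and Ccl11, of the 21878 genes in the tables. They were chosen by gene symbol, all 9 were found, and all 9 passed the filter on low counts that left 14609 genes for testing. The tissue was abdominal aorta, taken from male mice (C57BL/6, 8 weeks of age) given angiotensin II for a period of at most 28 days. Angiotensin II (hereafter Ang II) raises blood pressure and, in mice with high plasma lipids, brings on aortic aneurysms. Of the 7 libraries, 4 carried the label ApoE-/-Nur77-/-, a double knockout written here as DKO 1 to DKO 4, and 3 carried the label ApoE-/-, written as ApoE 1 to ApoE 3. Loss of ApoE, the lipoprotein ligand whose absence raises plasma cholesterol, is thus common to all libraries by label, as is Ang II. Nr4a1 encodes Nur77, a nuclear receptor, and the comparison asks what its loss changes in the aortic wall under Ang II. Neither the deleted segments, nor any restriction of the deletion to a cell type, nor whether the libraries stem from different mice is stated in the labels. The p-values therefore measure only the spread between these libraries, which may be technical.

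Chemokines are small secreted proteins that direct leukocytes along gradients, and the CC class is named for a pair of adjacent cysteines near the amino terminus. They bind G protein-coupled receptors on the arriving cells, with several ligands sharing a receptor. Ligands of CCR2 draw monocytes out of the blood, ligands of CCR1 act on monocytes and macrophages, and eotaxins act on eosinophils through CCR3. In the aorta under Ang II the CCR2 axis is known for recruiting monocytes into the adventitia.

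Total counts per library ran from 19295287 to 21727192. Levels are given in CPM, counts scaled to the library's size, and the floor set by a count of 0, taken as 3 counts, was 0.138 to 0.155 CPM (counting error only). Reads of the genes named as deleted were present in every library, and the deleted segments are not stated. Nr4a1 was read at 46.2 to 92.7 CPM in the libraries labelled DKO and 56.4 to 193 CPM in those labelled ApoE-/-. Apoe, knocked out by label in every library, was read at 18.3 to 34.7 CPM in the libraries labelled DKO and 184 to 250.3 CPM in those labelled ApoE-/-. The Apoe reads thus lay apart between groups that share this knockout by label. The genotypes could not be checked further from gene counts. Every direction below is therefore that of the libraries labelled DKO over the libraries labelled ApoE-/-. ApoE 2 and ApoE 3 also stood apart by atrial cardiomyocyte genes, whose 7 markers summed to 359 and 1291 CPM there, against 19.0 to 44.8 CPM in the DKO libraries and 42.1 CPM in ApoE 1. The aortic wall was represented in every library, with 7 smooth muscle markers summing to 7975 to 28861 CPM in the DKO libraries and 15133 to 23566 CPM in the ApoE-/- libraries.

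None of the 9 genes passed the test. At an adjusted p under 0.05 (edgeR's quasi-likelihood test, Benjamini-Hochberg over all genes tested), 0 of 9 were called higher and 0 lower in the libraries labelled DKO, where 0.0% of all tested genes were called higher and 0.0274% lower. At an unadjusted p under 0.05, 2 of 9 were higher and 0 lower, against 8.0% and 11.8% of all tested genes. The 2 were Ccl2 and Ccl7, which lie next to each other on the chromosome. They were also the 2 of 9 whose levels did not overlap between groups on the higher side, where 7.08% of all tested genes did so, and 0 of 9 lay apart on the lower side, against 9.24% of all tested genes. DESeq2's Wald test called 1 of the 9 higher (Ccl7) and 0 lower, where it called 3.23% of genes higher and 4.8% lower. Limma voom, run with quality weights per library, called 2 higher (Ccl2 and Ccl7) and 0 lower, where it called 6.17% of genes higher and 10.04% lower. Those weights were 2.43 for ApoE 1 and 2.81 for DKO 3, and ran from 0.41 to 0.91 in the other libraries. The median log2 fold change of the 9 was 0.09, beside -0.02 over all tested genes.

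All 9 genes lie on chromosome 11 in 2 groups (GRCm38.p6, RefSeq). Ccl2 (82035577 to 82037452), Ccl7 (82045712 to 82047525), Ccl11 (82057832 to 82062955) and Ccl8 (82115185 to 82116799) run in that order on the plus strand. After a gap of 1409 kb come Ccl5 (83525778 to 83530518), Ccl9 (83572917 to 83578636), Ccl6 (83587886 to 83593087) and Ccl3 (83647843 to 83649378) on the minus strand and Ccl4 (83648624 to 83664683) on the plus strand. The RefSeq models of Ccl3 and Ccl4 overlap by 755 bases on opposite strands. The sources used here do not state whether counting used strand. Reads in that overlap could therefore have gone to either gene, or to neither, and the levels of Ccl3 and Ccl4 are uncertain to that extent.

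Per gene length, Ccl8 and Ccl6 were the most abundant members. In FPKM, the deposited level per kilobase, the medians over the 7 libraries were 119.8 for Ccl8, 104 for Ccl6, 32.7 for Ccl9, 22.1 for Ccl2, 19.5 for Ccl11, 17.9 for Ccl5, 12.9 for Ccl7, 5.21 for Ccl3 and 3.64 for Ccl4. The ranges of most neighbours in that order overlapped over the 7 libraries, Ccl8 being above Ccl6 in 3 libraries of the 7. The exception was Ccl6 and Ccl9: the lowest Ccl6 level (75.9 FPKM) lay above the highest Ccl9 level (48.4 FPKM). Compared within each library, Ccl9 also lay above Ccl2, and Ccl7 above Ccl3, in all 7 libraries. Ccl6 and Ccl8 together made up 55.9% to 75.5% of the summed FPKM of the 9 genes in the libraries labelled DKO and 65.0% to 71.1% in those labelled ApoE-/-. The sum of the 9 was 391, 250.4, 403 and 449 FPKM in DKO 1 to DKO 4 and 315, 492 and 293 FPKM in ApoE 1 to ApoE 3, so the groups overlapped in total ligand level.

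**Figure D1:**
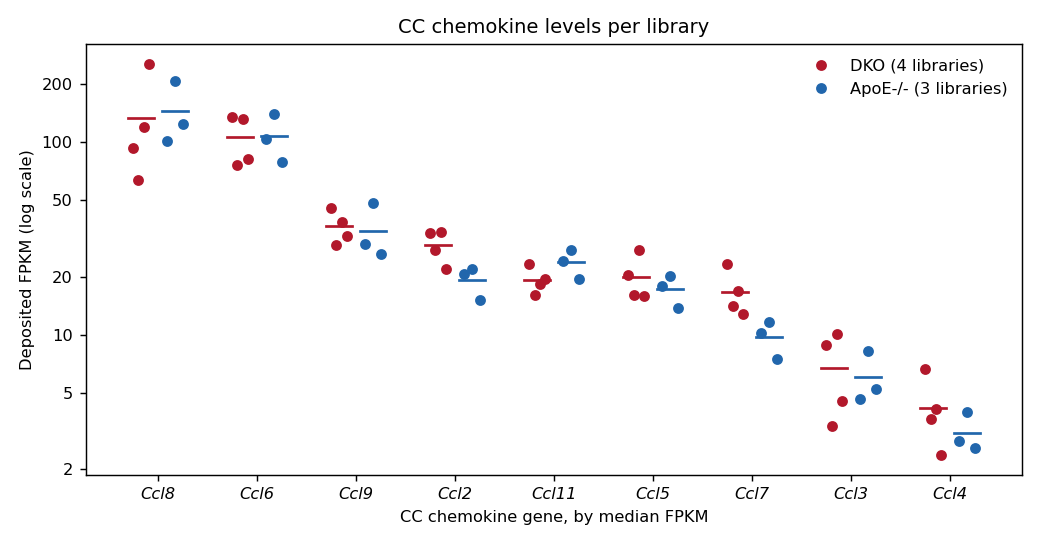
Deposited FPKM (log scale) of the 9 CC chemokine genes in each library, ordered by median, with libraries labelled DKO in red on the left and those labelled ApoE-/- in blue on the right of each gene; points are libraries and bars are group means (n = 4 and n = 3). Only Ccl2 and Ccl7 show no overlap between the groups, and for Ccl2 the nearest libraries nearly touch (22.1 FPKM in DKO 4 and 22.0 FPKM in ApoE 2).

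Ccl2, also called MCP-1, is the main ligand of CCR2 and the chemokine best known for drawing monocytes into the aorta. It was at 25.7, 21.6, 27.0 and 20.04 CPM in DKO 1 to DKO 4, against 18.3, 18.4 and 13.7 CPM in ApoE 1 to ApoE 3. The DKO libraries were all above the ApoE-/- libraries, with DKO 4 nearest to them and ApoE 3 lowest. The means were 23.6 ± 3.29 CPM (SD, n = 4) and 16.8 ± 2.67 CPM (SD, n = 3), a log2 fold change of 0.49 (SE 0.16, edgeR unadjusted p = 0.0167, adjusted p = 0.175). Limma voom gave an adjusted p of 0.0406, and adjusted p over all 18 alternatives ran up to 0.719.

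Ccl7, or MCP-3, also binds CCR2. It was at 18.7, 11.6, 14.2 and 12.3 CPM in DKO 1 to DKO 4, against 9.12, 10.02 and 6.98 CPM in ApoE 1 to ApoE 3. All DKO libraries lay above all ApoE-/- libraries, DKO 1 highest and ApoE 3 lowest. The means were 14.2 ± 3.18 CPM (SD, n = 4) and 8.71 ± 1.56 CPM (SD, n = 3), a log2 fold change of 0.70 (SE 0.21, edgeR unadjusted p = 0.0124, adjusted p = 0.166), which is 1.63-fold. The adjusted p was 0.0464 with DESeq2, 0.0426 with limma voom and up to 0.683 over all 18 alternatives. Leaving out each library in turn gave 0.56 to 0.82 for Ccl7 and 0.36 to 0.56 for Ccl2, with no call. Without ApoE 3 the estimates were 0.57 (SE 0.23) for Ccl7 and 0.36 (SE 0.15) for Ccl2, and without ApoE 2 they were 0.82 (SE 0.25) and 0.56 (SE 0.19). Without ApoE 3 and DKO 1 together they were 0.41 (SE 0.18) for Ccl7 and 0.32 (SE 0.17) for Ccl2.

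Ccl2 and Ccl7 varied together over the 7 libraries more closely than any other pair of members. The Pearson correlation of their log2 CPM was 0.93 (n = 7 libraries, which share depth and tissue makeup), the highest of the 36 pairs of members. Ccl7 in FPKM was 0.492 to 0.692 times Ccl2 in the libraries labelled DKO and 0.492 to 0.531 times in those labelled ApoE-/-, while over the 7 libraries Ccl2 spanned 2.25-fold and Ccl7 3.12-fold. Ccl12 (MCP-5), another CCR2 ligand of the mouse, whose gene lies between Ccl11 and Ccl8, overlapped between groups (12.7, 8.48, 9.06 and 8.44 CPM in DKO 1 to DKO 4, against 5.01, 9.97 and 8.18 CPM in ApoE 1 to ApoE 3; log2 fold change 0.32, SE 0.27, edgeR adjusted p = 0.533).

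**Figure D2:**
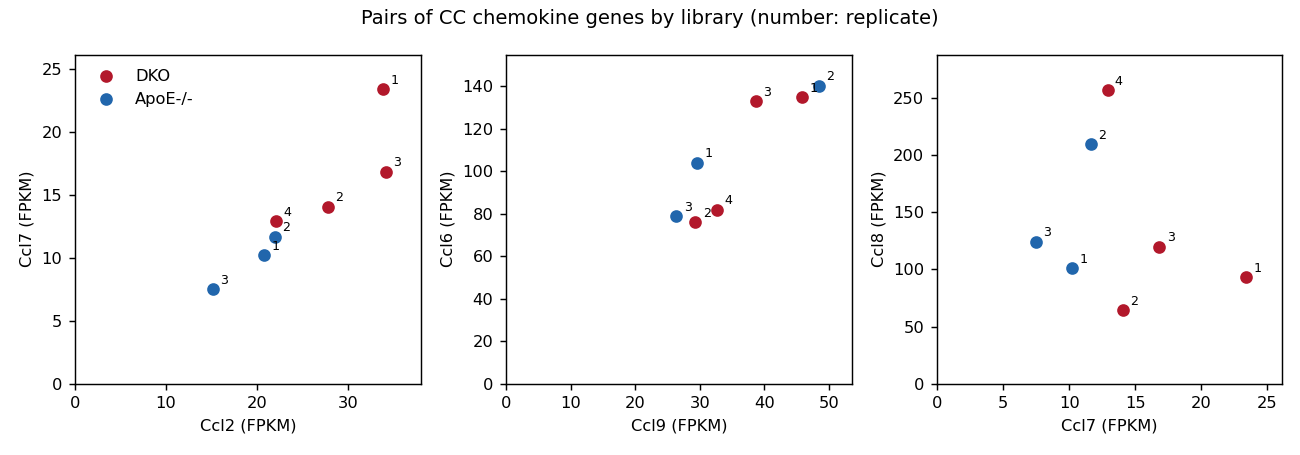
FPKM of pairs of CC chemokine genes in each library (red, labelled DKO; blue, labelled ApoE-/-; numbers are replicates). Ccl2 and Ccl7 rise along a line with the ApoE-/- libraries at its lower end, Ccl6 and Ccl9 rise along a line on which the groups mix, and Ccl8 is highest in DKO 4, a library with 12.9 FPKM of Ccl7.

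Ccl3 and Ccl4 are the MIP-1 chemokines and Ccl5 is RANTES, all made by activated leukocytes, and Ccl3 and Ccl5 bind CCR1. Ccl3 was at 6.03, 2.58, 7.19 and 3.58 CPM in DKO 1 to DKO 4, against 3.42, 5.93 and 3.93 CPM in ApoE 1 to ApoE 3. Its levels divided DKO 1, DKO 3 and ApoE 2 from the other libraries, and the groups differed by 0.13 on the log2 scale (SE 0.40, edgeR adjusted p = 0.889). Ccl4 was at 5.89, 3.56, 4.71 and 2.86 CPM in DKO 1 to DKO 4, against 3.27, 3.82 and 2.95 CPM in ApoE 1 to ApoE 3 (log2 fold change 0.35, SE 0.29, edgeR adjusted p = 0.535). Both the highest and the lowest Ccl4 level came from libraries labelled DKO. Ccl5 was at 8.23, 6.94, 11.6 and 7.11 CPM in DKO 1 to DKO 4, against 8.83, 8.504 and 6.60 CPM in ApoE 1 to ApoE 3 (log2 fold change 0.09, SE 0.23, edgeR adjusted p = 0.870). Libraries of both groups overlapped for all 3 of these genes.

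Ccl6 and Ccl9 are rodent chemokines made by myeloid cells that act on CCR1, and their genes are neighbours 9.25 kb apart. Ccl6 was at 202, 111, 198 and 128 CPM in DKO 1 to DKO 4, against 172, 203 and 122 CPM in ApoE 1 to ApoE 3 (log2 fold change -0.05, SE 0.27, edgeR adjusted p = 0.933). Ccl9 was at 110.2, 67.4, 93.9 and 82.3 CPM in DKO 1 to DKO 4, against 79.8, 111 and 66.6 CPM in ApoE 1 to ApoE 3 (log2 fold change 0.04, SE 0.22, edgeR adjusted p = 0.929). Both genes were high in DKO 1, DKO 3 and ApoE 2 and low in DKO 2 and ApoE 3, so most of their spread lay within the groups. Their Pearson correlation was 0.90 over the 7 libraries, the second highest among the members, and Ccl6 in FPKM was 2.51 to 3.43 times Ccl9 in the libraries labelled DKO and 2.89 to 3.52 times in those labelled ApoE-/-. Ccl3, of the same gene group, had correlations of 0.85 with Ccl6 and 0.82 with Ccl9.

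Promoter windows were on hand for 4 of the 9 members (RefSeq, GRCm38.p6), and those of Ccl6 and Ccl9 are shown because this pair varied together, with that of Ccl8 as the member that varied on its own. Each is the 250 bases before the annotated start, read 5′ to 3′ on the gene's strand. In Ccl6 and Ccl9 the capitals at the end mark only the printed part of the stretch that aligns between them. That stretch runs past the start, from -59 to 14 in Ccl6 and from -18 to 48 in Ccl9. Most of the Ccl9 part is thus not printed, and the printed capitals are not each other's full match. In Ccl6 the earlier capitals mark a match to the NGFI-B response element, the sequence that Nur77 is known to bind. In Ccl8 the capitals mark a TATA box. The windows are chr11:83593088-83593337 (minus strand) for Ccl6, chr11:83578637-83578886 (minus strand) for Ccl9 and chr11:82114935-82115184 (plus strand) for Ccl8.
Ccl6: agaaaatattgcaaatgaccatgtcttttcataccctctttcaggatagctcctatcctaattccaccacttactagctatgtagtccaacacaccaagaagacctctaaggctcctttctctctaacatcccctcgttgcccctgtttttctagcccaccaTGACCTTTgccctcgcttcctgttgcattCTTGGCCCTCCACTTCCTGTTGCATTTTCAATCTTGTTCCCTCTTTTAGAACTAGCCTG
Ccl9: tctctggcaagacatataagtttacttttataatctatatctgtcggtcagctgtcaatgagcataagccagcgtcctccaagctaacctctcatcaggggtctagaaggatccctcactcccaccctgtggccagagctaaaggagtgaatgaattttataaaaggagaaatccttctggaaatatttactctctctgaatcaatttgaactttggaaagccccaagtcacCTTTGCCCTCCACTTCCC
Ccl8: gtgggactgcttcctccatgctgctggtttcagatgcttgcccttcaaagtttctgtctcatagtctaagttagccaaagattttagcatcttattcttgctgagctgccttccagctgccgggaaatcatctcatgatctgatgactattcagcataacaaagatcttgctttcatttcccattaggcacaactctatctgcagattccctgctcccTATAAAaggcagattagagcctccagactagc

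With the 50 bases after the start included, the Ccl6 and Ccl9 windows aligned over 74 columns, 59 of them identical. Of the 32850 promoter windows set against that of Ccl9, 1 reached this alignment score, and it was that of Ccl6. Motifs were then searched on both strands of the 250 bases, with some overlapping each other. The NGFI-B response element AAAGGTCA was found in 1 of the 4 members, Ccl6, where it reads TGACCTTT on the gene's strand from 88 bases before the start, and in 1.34% of all 32851 promoters. Its core AGGTCA, part of that element, was found in Ccl6 and Ccl3 and in 14.0% of all promoters. The kappaB core GGGNNNNNCC was in 1 of the 4 (Ccl9) and in 45.8% of all promoters, the TATA box TATAAA in 2 (Ccl8 and Ccl9) and in 12.4%, and the AP-1 motif TGACTCA (4.46% of all promoters) and the STAT motif TTCNNNGAA (7.02%) in none of the 4. These are matches of letters in these windows only. Ccl6, the member with the full element, had a log2 fold change of -0.05 (SE 0.27) between the groups, and whether Nur77 acts on this site was not tested.

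Ccl8, or MCP-2, is known in the mouse as a product of tissue macrophages and a ligand of CCR8. It was at 42.6, 30.7, 55.2 and 129 CPM in DKO 1 to DKO 4, against 51.6, 98.6 and 64.9 CPM in ApoE 1 to ApoE 3. It had the widest relative spread of the 9 genes, with a coefficient of variation of 49.8% over the 7 libraries in FPKM and a 4.01-fold span. DKO 4 held the highest level and DKO 2 the lowest, so the group labelled DKO enclosed the other. The means were 64.3 ± 44.0 CPM (SD, n = 4) and 71.7 ± 24.2 CPM (SD, n = 3), a log2 fold change of -0.16 (SE 0.49, edgeR adjusted p = 0.890). Without DKO 4 it was -0.74 (SE 0.30, edgeR adjusted p = 0.153).

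Ccl8 did not follow the other members. Its correlations with them over the 7 libraries ran from -0.44 with Ccl4 to 0.38 with Ccl11. In FPKM, Ccl8 was 3.99, 4.56, 7.12 and 19.9 times Ccl7 in DKO 1 to DKO 4, against 9.88, 17.9 and 16.5 times in ApoE 1 to ApoE 3. DKO 4 thus lay with the ApoE-/- libraries, or above them, while the other DKO libraries lay below. The mast cell marker list was the marker list that Ccl8 followed most closely (Pearson r 0.89 between log2 CPM and the mean of 6 markers, n = 7 libraries). The resident macrophage list (r 0.67) and the smooth muscle list (r 0.63) came next, whereas the correlation of Ccl8 with the general macrophage list was -0.31. Mast cell markers summed to 68.6, 52.6, 59.8 and 78.3 CPM in DKO 1 to DKO 4 and 64.0, 86.9 and 67.7 CPM in ApoE 1 to ApoE 3, and resident macrophage markers to 450, 372, 453 and 364 CPM and to 367, 518 and 446 CPM. Kit, a mast cell receptor that other cells also carry, was the largest term of the mast cell sum in DKO 1 and ran the other way, at 46.6, 25.0, 32.9 and 19.9 CPM in DKO 1 to DKO 4 and 21.7, 18.2 and 16.8 CPM in ApoE 1 to ApoE 3. The other 5 mast cell markers were each highest in DKO 4 or ApoE 2, the libraries with the most Ccl8, so the sums do not show the course behind the correlation. The resident macrophage markers were also divided, and their sum was lowest in DKO 4, the library with the most Ccl8. Mrc1, the largest, and F13a1 were at 173 and 69.9 CPM in DKO 4, their lowest among the DKO libraries. Folr2 and Cd163 were at 42.5 and 28.4 CPM there, their highest among the DKO libraries, and Lyve1 and Timd4 lay between. The part of mast cells, resident macrophages and smooth muscle in the Ccl8 levels was not tested.

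Ccl11 is eotaxin, which attracts eosinophils through CCR3 and is made largely by fibroblasts and smooth muscle. It was at 26.1, 17.7, 20.8 and 22.6 CPM in DKO 1 to DKO 4, against 29.5, 29.6 and 22.6 CPM in ApoE 1 to ApoE 3. ApoE 3 lay within the range of the DKO libraries, and the other ApoE-/- libraries lay above it. The means were 21.8 ± 3.53 CPM (SD, n = 4) and 27.2 ± 4.03 CPM (SD, n = 3), a log2 fold change of -0.32 (SE 0.16, edgeR unadjusted p = 0.0852, adjusted p = 0.316), and the sign was negative under all 18 alternatives. It was the least variable member, with a coefficient of variation of 18.9% over the 7 libraries in FPKM. Ccl24, another CCR3 ligand, was at 0.910, 0.938, 1.91 and 1.02 CPM in DKO 1 to DKO 4 and 2.28, 1.52 and 2.73 CPM in ApoE 1 to ApoE 3 (log2 fold change -0.86, SE 0.38, edgeR adjusted p = 0.265). Eosinophil genes were close to the floor: the 6 markers summed to 1.48 to 4.40 CPM in the libraries labelled DKO and 0.744 to 1.38 CPM in those labelled ApoE-/-, and Epx, their defining peroxidase, was at 0 in every library but DKO 1 (0.527 CPM).

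**Figure D3:**
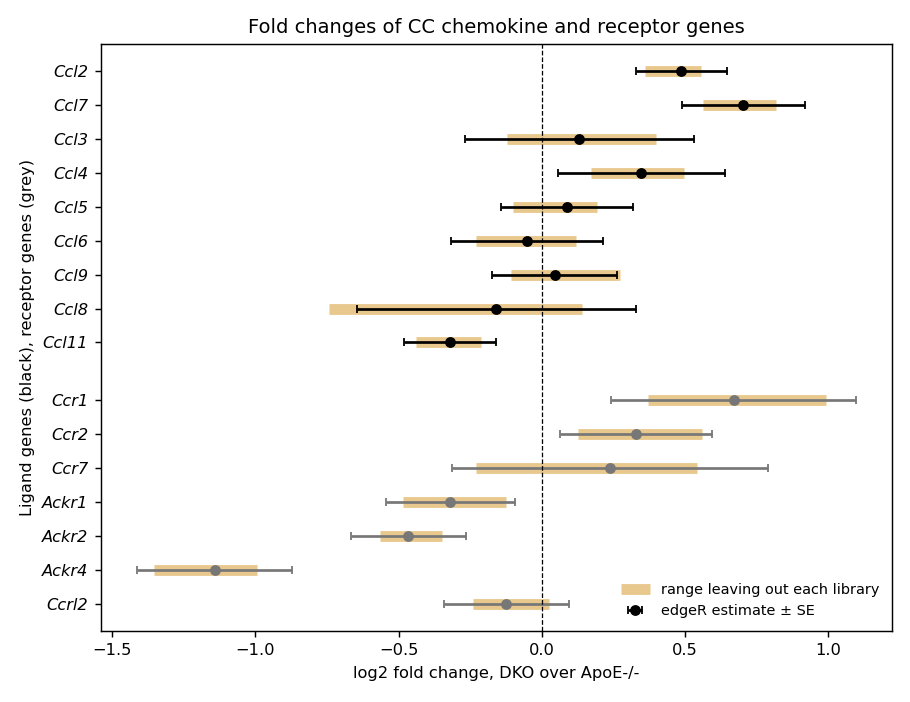
Log2 fold changes of the libraries labelled DKO over those labelled ApoE-/- for the 9 CC chemokine genes (black) and 7 receptor genes (grey); points are edgeR estimates, whiskers their SE and ochre bars the range over leaving out each library. Ccl2, Ccl7 and Ccl4 stay above 0 and Ccl11 below 0 in every leave-out of members, the Ccl8 range reaches from -0.74 to 0.14, and Ackr4 lies farthest from 0 among the receptors drawn.

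Among the CC chemokine receptors, 7 of 11 were measured and 0 passed in either direction with edgeR (1 higher and 0 lower at an unadjusted p under 0.05). Their median log2 fold change was 0.67, beside -0.02 over all tested genes, and 6 of the 7 were positive. Of all 14609 tested genes, 6924 were positive and 7685 negative. With edgeR, 8.0% of them were higher and 11.8% lower at an unadjusted p under 0.05. At an adjusted p under 0.05 the shares were 0.0% and 0.0274%. These shares are the background for the gene lists that follow as well. Ccr2, the receptor of Ccl2 and Ccl7, was at 95.1, 66.9, 69.9 and 49.5 CPM in DKO 1 to DKO 4, against 56.4, 72.6 and 39.1 CPM in ApoE 1 to ApoE 3, and overlapped between groups (log2 fold change 0.33, SE 0.27, edgeR adjusted p = 0.518). Ccr1, shared by Ccl3, Ccl5, Ccl6 and Ccl9, was at 31.7, 20.4, 18.9 and 8.69 CPM in DKO 1 to DKO 4, against 11.4, 17.5 and 8.62 CPM in ApoE 1 to ApoE 3 (log2 fold change 0.67, SE 0.43, edgeR adjusted p = 0.413). DKO 4 was the lowest DKO library for both of these receptors.

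The other measured receptors were at low levels. Ccr7, which guides dendritic and T cells to lymphoid tissue, averaged 5.10 ± 3.19 CPM (SD, n = 4) in the libraries labelled DKO and 4.33 ± 1.87 CPM (SD, n = 3) in those labelled ApoE-/- (edgeR adjusted p = 0.852). Ccr6 of B and T cells averaged 1.70 ± 1.11 and 0.675 ± 1.13 CPM, with 1 alternative, limma voom, that called it higher (adjusted p = 0.0477). Its log2 fold change was 4.28 with limma voom, against 1.31 (SE 1.29) with edgeR. ApoE 2, at 1.98 CPM against 0.050 and 0 CPM in ApoE 1 and ApoE 3, had a quality weight of 0.67, against 2.43 for ApoE 1. Ccr9, a receptor of gut-homing lymphocytes, and Ccr10, a receptor of skin-homing T cells, averaged under 1 CPM in both groups. Ccr8, the receptor of mouse Ccl8, was not tested, with 0.154 CPM in the libraries labelled DKO and 0.079 CPM in those labelled ApoE-/-, around the level that a count of 0 allows. Ccr3, the receptor of Ccl11, was not tested either, at 1.197, 0.703, 0.222 and 0.358 CPM in DKO 1 to DKO 4 and 0.149, 0.138 and 0.109 CPM in ApoE 1 to ApoE 3. Its ApoE-/- levels were at or below that floor. Ccr4, a receptor of regulatory and type 2 helper T cells, and Ccr1l1 lay below 0.3 CPM in both groups' means.

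Atypical receptors bind chemokines without G protein signalling and clear or store them. All 4 receptors of this list, with the related Ccrl2, were measured, all were negative, with a median of -0.39 on the log2 scale, and 0 passed with edgeR (0 higher and 1 lower at an unadjusted p under 0.05). Ackr4, a scavenger of Ccl19, Ccl21 and Ccl25, was at 6.70, 4.83, 4.08 and 8.49 CPM in DKO 1 to DKO 4, against 14.7, 10.9 and 14.3 CPM in ApoE 1 to ApoE 3, without overlap. The fitted log2 difference between groups was -1.14 (SE 0.27, edgeR adjusted p = 0.146; 0.00827 with DESeq2 and 0.0188 with limma voom). Ackr2, which scavenges inflammatory CC chemokines such as Ccl2, was at 8.90, 7.45, 7.28 and 5.52 CPM in DKO 1 to DKO 4, against 9.92, 8.64 and 11.7 CPM in ApoE 1 to ApoE 3 (log2 fold change -0.47, SE 0.20, edgeR adjusted p = 0.257). Only DKO 1 of the DKO libraries reached the ApoE-/- range. Ackr1, a binder of many chemokines on venular endothelium, had a log2 fold change of -0.32 (SE 0.23, edgeR adjusted p = 0.456) and Ccrl2, which binds chemerin, one of -0.12 (SE 0.22, edgeR adjusted p = 0.794).

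Of 15 other CC chemokine genes listed, 14 were in the table and 8 were measured. None passed with edgeR (1 higher and 0 lower at an unadjusted p under 0.05), 5 were positive and 3 negative, and the median log2 fold change was 0.03. Ccl21a, a lymphatic and lymphoid ligand of CCR7, averaged 129 ± 18.4 CPM (SD, n = 4) in the libraries labelled DKO and 73.2 ± 22.5 CPM (SD, n = 3) in those labelled ApoE-/-, without overlap (log2 fold change 0.82, SE 0.23, edgeR adjusted p = 0.159; 0.0131 with DESeq2 and 0.0382 with limma voom). Its reads can be shared with near-identical copies such as Ccl21b, so the count is uncertain. Ccl19, the other CCR7 ligand, had a log2 fold change of 0.03 (SE 0.41), and Ccl22 (0.03, SE 0.35) and Ccl17 (0.37, SE 0.26), ligands of CCR4, averaged under 3 CPM in both groups. Ccl25 (-0.13, SE 0.28) and Ccl27a (-0.35, SE 0.29) are ligands of CCR9 and CCR10. Ccl1, Ccl20, Ccl21b, Ccl26, Ccl27b and Ccl28 had too few counts for a test.

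The genes through which CC receptors signal had a median log2 fold change of 0.33, and 12 of the 13 measured were positive. None passed with edgeR (1 higher and 0 lower at an unadjusted p under 0.05). The 3 with the smallest p were Pik3cg, the phosphoinositide kinase downstream of these receptors (0.76, SE 0.30, edgeR adjusted p = 0.218), Ptk2b, a calcium-responsive kinase (0.45, SE 0.22, edgeR adjusted p = 0.298), and Dock2, the Rac activator of migrating leukocytes (0.68, SE 0.33, edgeR adjusted p = 0.300). Of 16 cytokines and transcription factors known to induce chemokines, 12 were measured, 9 were positive, the median was 0.13 and none passed (1 higher and 1 lower at an unadjusted p under 0.05). Nfkbia, the inhibitor of NF-kappaB that is also its target, averaged 77.9 ± 14.5 CPM (SD, n = 4) in the libraries labelled DKO and 136 ± 46.1 CPM (SD, n = 3) in those labelled ApoE-/- (log2 fold change -0.81, SE 0.24, edgeR adjusted p = 0.162; 0.0342 with DESeq2 and 0.0375 with limma voom). Nfkb2 (0.18, SE 0.07, edgeR adjusted p = 0.231) and Il1b, the macrophage cytokine (0.93, SE 0.40, edgeR adjusted p = 0.255), followed by p. Il4, Il13, Ifng and Il17a had too few counts for a test.

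Macrophage markers moved with most of the ligands across libraries, and so did other marker lists. The 13 markers, none of them at 0, summed to 5138, 3805, 6034 and 3158 CPM in DKO 1 to DKO 4 and 3722, 4143 and 2827 CPM in ApoE 1 to ApoE 3, so the groups overlapped. The Pearson correlation of a gene's log2 CPM with the mean of these markers was 0.91 for Ccl2, 0.89 for Ccl4, 0.82 for Ccl7, 0.75 for Ccl5, 0.70 for Ccl9, 0.69 for Ccl6, 0.68 for Ccl3, -0.05 for Ccl11 and -0.31 for Ccl8 (n = 7 libraries). Other lists were closer for Ccl5 (T and NK cell, 0.84), Ccl9 (monocyte, 0.90) and Ccl4 (eosinophil, close to the floor, 0.91). For Ccl3 the resident macrophage list (0.685) was level with the macrophage list (0.682). In these bulk samples, more cells of a type and more RNA per cell cannot be told apart. With the macrophage level as a covariate, an alternative chosen after seeing the data, the estimate was 0.26 (SE 0.11, edgeR adjusted p = 0.540) for Ccl2 and 0.45 (SE 0.19, edgeR adjusted p = 0.543) for Ccl7. Ccl2 also had correlations of 0.93 with the T and NK cell list, -0.86 with the white adipocyte list, -0.84 with the brown adipocyte list and 0.79 with the B cell list. Its correlation with the atrial cardiomyocyte list, which was high only in ApoE 2 and ApoE 3, was -0.75. For Ccl7 the correlations were 0.84 with the eosinophil list, -0.82 with the white adipocyte list, 0.79 with the T and NK cell list and 0.79 with the monocyte list. The 11 T and NK cell markers in the table summed to 44.0, 30.1, 67.3 and 29.6 CPM in DKO 1 to DKO 4 and 29.6, 37.7 and 16.96 CPM in ApoE 1 to ApoE 3. White adipocyte markers (6) summed to 2151 to 3257 CPM in the libraries labelled DKO and 4447 to 6847 CPM in those labelled ApoE-/-, without overlap. Brown adipocyte markers (4) also lay apart, at 147 to 401 CPM in the libraries labelled DKO and 465 to 1427 CPM in those labelled ApoE-/-. Monocyte markers (6) lay apart on the higher side, at 11695 to 16731 CPM in the libraries labelled DKO and 9512 to 11460.2 CPM in those labelled ApoE-/-, nearly all of it Fn1, fibronectin, which fibroblasts and smooth muscle make too. The part of these cells in the Ccl2 and Ccl7 levels was not tested.

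**Figure D4:**
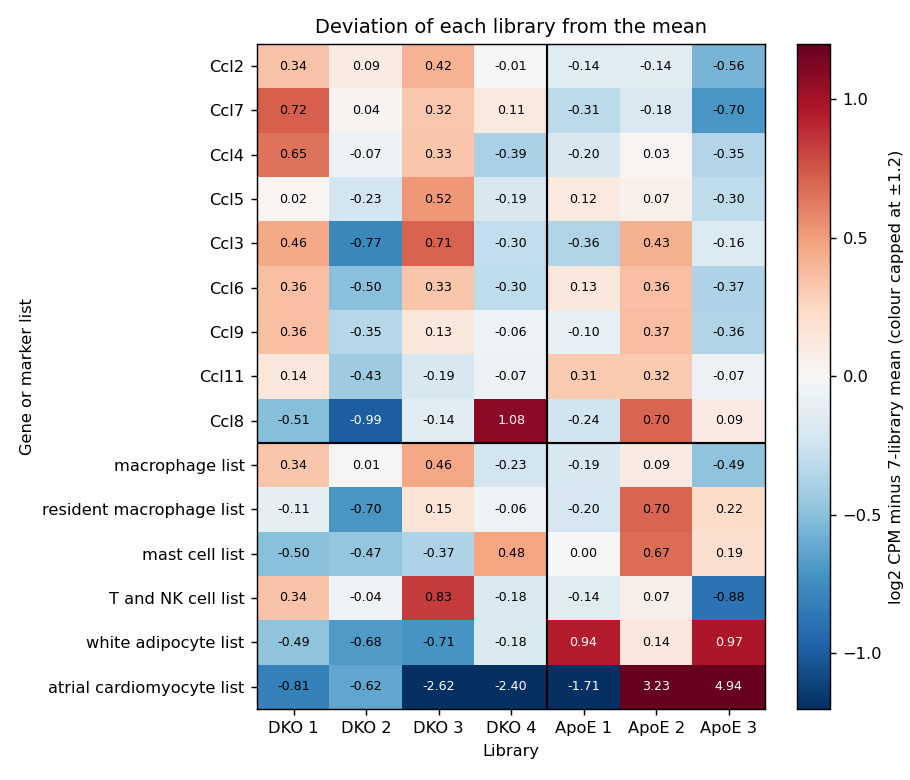
Log2 CPM of each CC chemokine gene (top) and the mean log2 CPM of marker lists (bottom), minus the mean over the 7 libraries; columns are libraries, with those labelled DKO on the left, and red is above and blue below the mean. DKO 1 and DKO 3 are above the mean for 7 of the 9 genes or more and ApoE 3 is below it for all but Ccl8, which is highest in DKO 4.

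For each member, the 3 genes outside the family with the closest course over the 7 libraries were listed out of 13011 genes with a mean log2 CPM of at least 1. With 7 libraries and so many genes, high correlations can arise without a link between the genes. How often they do so was not counted, and they are given as a description. Ccl2 was closest to Lonrf3 (r 1.00), Zmiz1 (0.98) and Purb (0.98), and Ccl7 to Thoc2 (0.99), Ell2 (0.99) and Zfp52 (0.99). Ccl3 was closest to Rgs14 (0.98), Cdc40 (0.97) and Dock10 (0.97), Ccl4 to Antxr2 (1.00), Skap2 (1.00) and Zufsp (0.99), and Ccl5 to Cd83 (0.99), Bcl2a1d (0.97) and Bud13 (0.96). Ccl6 was closest to P2ry14 (0.99), Abi3bp (0.98) and Sepp1 (0.98), and Ccl9 to Plscr2 (0.98), LOC108168376 (0.97) and Scarb2 (0.97). Ccl8 was closest to C6 (0.97), Sfi1 (0.96) and Bcl6 (0.96), and Ccl11 to Gdf10 (0.97), Snw1 (0.96) and Lcn2 (0.95). No gene appeared in more than 1 of these lists.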

How the data were processed

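Polyadenylated RNA was sequenced from strand-marking libraries, per the labels' protocols. Trimmomatic, HISAT2, HTSeq, Cufflinks and DESeq with GRCm38.p6 are named, without versions or roles, per the submitters' processing notes; the annotation, and whether counting used strand, is not given in the sources used here. The deposited counts are raw reads per gene, and the deposited FPKM values were scaled by the authors for transcript length and library depth. Genotype and number in each column name gave its sample, and 27 symbols turned into dates were restored. Counts were filtered (filterByExpr, minimum count 10), TMM-normalised and tested with edgeR 4.0.16 (R 4.3.3) on 4 libraries labelled DKO and 3 labelled ApoE-/-, with Benjamini-Hochberg adjustment over all genes and a threshold of 0.05. Each SE was derived from F as |log2 fold change| / sqrt(F). CPM uses TMM-scaled totals, and log2 CPM a prior count of 2. Alternatives used limma 3.58.1, DESeq2 1.42.0 and other filters, scalings and library sets. Chi-square per gene was at least 35.2 for all pairs of libraries, so none repeated another. The fold changes of the test were checked on simulated counts, and the share of changed genes that it recovers is not given here. Promoters were aligned with Biopython 1.88. The members and lists were chosen with earlier results of these data known. Named genes were all members, the measured receptors (1 is not reported here) and other CC chemokines, 3 members of each remaining list by p, and for each member the 3 genes of highest correlation; Nr4a1 and Apoe checked the labels. Epx, Kit, Fn1, the resident macrophage markers, and receptors and chemokines too low to test, were named after their values were seen.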

Additional observations from a re-analysis of the deposited data

How the results depend on the processing

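With edgeR, 0 members, 0 receptors and 4 of all genes (0 higher, 4 lower) were called. DESeq2 called 1 member, 1 receptor, 453 genes higher and 673 lower, and limma voom 2 members, 2 receptors, 902 genes higher and 1467 lower. The replicate number as a block, in which DKO 4 has no partner and adds nothing to the contrast, and the macrophage covariate each left 0 genes lower. Whether the numbers pair the samples could not be decided from these libraries. Correlations of deviations were -0.39, 0.70 and 0.0036 between same-numbered libraries, against -0.73 to 0.58 between differently numbered ones. The highest of all was that of the libraries numbered 2. Under the block 0 members were called. Leaving out ApoE 3 and DKO 1 together gave 2 genes higher and 0 lower. Limma on log2(FPKM + 1) or log2(FPKM + 0.1) gave 1 gene higher, and without a filter 0 lower. Leaving out each library gave 0 to 4 genes higher and 0 to 2 lower. The cause was not tested.

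Of 162 fold changes of members under alternatives, 137 kept sign and call, 3 gained a call and 22 changed sign. The gains were Ccl7 with DESeq2 (0.73) and Ccl2 (0.52) and Ccl7 (0.67) with limma voom. Apart from leaving out each library, the sign changed for Ccl6 with limma voom (0.053) and the block (0.027), Ccl3 (-0.070), Ccl5 (-0.017) and Ccl9 (-0.23) without ApoE 3 and DKO 1, and Ccl3 (-0.42), Ccl4 (-0.052), Ccl5 (-0.21) and Ccl9 (-0.22) with the macrophage covariate. Over leaving out each library the fold changes ran from -0.12 to 0.40 for Ccl3, 0.17 (without DKO 1) to 0.49 for Ccl4, -0.10 to 0.19 for Ccl5, -0.23 to 0.12 for Ccl6, -0.74 to 0.14 for Ccl8 and -0.11 to 0.27 for Ccl9. Among genes that are not members they ran from 0.09 to 0.55 for Ccl12, 0.37 to 0.99 for Ccr1, 0.12 to 0.56 for Ccr2, -0.49 to -0.12 for Ackr1, -0.56 to -0.16 for Ccl27a and -0.98 to -0.50 for Nfkbia, and they changed sign for Ccl19, Ccl22, Ccl25, Ccr7 and Ccrl2. Which members depth limits most was not compared.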
